A study of Mus musculus with 6 samples.

Results

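The 10 genes described here are common macrophage identity genes, namely *Csf1r*, *Adgre1*, *Cd68*, *Lyz2*, *Mrc1*, *Cd163*, *C1qa*, *C1qb*, *C1qc* and *Cd14*. They were chosen by name, each matched to the row of the count table whose Ensembl identifier carries that name in GENCODE M21. All 10 were found among the 26579 genes of the table, and all 10 were among the 15102 genes tested. The RNA-Seq libraries came from dorsal neck skin biopsies of 3 wild type (WT) and 3 YAP2-5SA-∆C transgenic (TG) mice, all female littermates aged 33 days (P33). The transgene is an activated YAP whose expression the study places in the epidermis, in the basal cells that make Keratin5/14. The samples were whole skin, and in such bulk RNA a larger number of macrophages and more RNA of these genes per cell cannot be told apart.

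Macrophages are phagocytes of the myeloid lineage that settle in the dermis, take up dying cells, debris and microbes, and sense injury. Their survival depends on the receptor CSF1R and its ligands CSF1 and IL-34, and their identity on transcription factors such as PU.1. In skin, dermal macrophages commonly carry the scavenger receptors CD206 and CD163, whereas CD14 marks monocytes and cells that respond to bacterial lipopolysaccharide.

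All 10 genes had higher normalised counts in every YAP2-5SA-∆C library than in any wild type library. Over all tested genes, the share in which the YAP2-5SA-∆C libraries lay above the wild type libraries without overlap was 15.5%. Most of the differences were moderate. The median ratio of the group means was 1.39, and the median log2 fold change was 0.47, against -0.01 over all tested genes. The largest was that of *Cd14* and the smallest that of *C1qa*. In edgeR's quasi-likelihood test, adjusted over all tested genes (FDR, Benjamini-Hochberg, threshold 0.05), *Csf1r* and *Mrc1* rose and the other 8 genes did not pass. This is 2 of 10, beside 1.44% of all tested genes called higher and 0.464% called lower. The number of calls depended on the test. It was 2 of 10 with voom (background 1.23%), 5 of 10 with the likelihood-ratio test of edgeR (background 5.52%) and 7 of 10 with DESeq2 (background 6.34%). None of these tests gave any of the genes a lower level in YAP2-5SA-∆C skin.

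The libraries held between 11225705 and 19505036 counts, and the 10 genes had between 23 counts (*Cd14*) and 4051 counts (*Mrc1*) in a single library. Values below are TMM-scaled CPM (a gene's counts relative to the library total), given for replicates 1, 2 and 3 of each genotype and then as mean ± SD (n = 3). Differences on the log2 scale are given with their standard error (SE). Unless another test is named, an edgeR FDR is that of the quasi-likelihood test. Coordinates are those of GRCm38, and all 10 genes are protein coding.

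**Figure D1:**
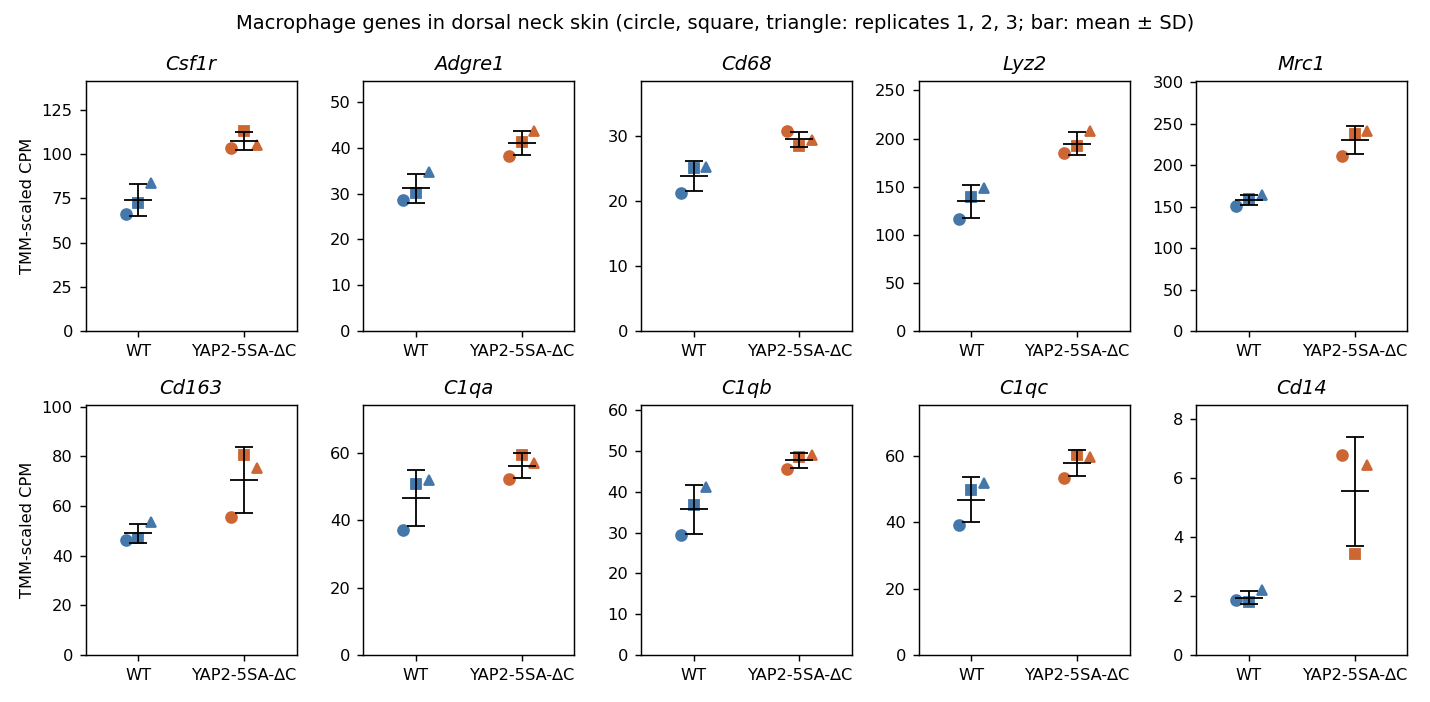
Normalised level of each macrophage gene (TMM-scaled CPM, linear axes from 0) in each wild type and YAP2-5SA-∆C library, with the mean and SD of 3 mice per group. Every YAP2-5SA-∆C point lies above every wild type point, with a gap of 0.647% between the nearest libraries for *C1qa* and 55.9% for *Cd14*.

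*Csf1r* and *Adgre1* encode surface receptors of the lineage. *Csf1r* (ENSMUSG00000024621, chr18:61100598-61132149, plus strand) encodes the receptor tyrosine kinase for CSF1 and IL-34. It was at 65.9, 72.1 and 83.6 CPM in wild type skin and at 104, 113 and 105 CPM in YAP2-5SA-∆C skin. The lowest YAP2-5SA-∆C library was 23.8% above the highest wild type library. *Csf1r* rose from 73.9 ± 9.01 to 107 ± 5.05 CPM, or by 0.54 on the log2 scale (SE 0.09), and passed edgeR's quasi-likelihood test at an FDR of 0.0456. Of its exon bases, 15.1% (873 bases) are shared with *Hmgxb3* on the opposite strand. The strand setting of the counting is not given in the sources used here, so reads in that stretch are uncertain. *Hmgxb3* itself had a log2 fold change of -0.07 (edgeR FDR 0.636).

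*Adgre1* (ENSMUSG00000004730, chr17:57358691-57483527, plus strand) encodes the adhesion receptor F4/80, the usual surface label of mouse macrophages. It was at 28.7, 30.0 and 34.7 CPM in wild type skin and at 38.2, 41.2 and 43.6 CPM in YAP2-5SA-∆C skin. The groups did not overlap, but the highest wild type library was close to the lowest YAP2-5SA-∆C library. The means were 31.2 ± 3.17 and 41.0 ± 2.71 CPM, and the difference of 0.40 on the log2 scale (SE 0.09) fell short of the threshold (edgeR FDR 0.0634).

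*Cd68* and *Lyz2* encode proteins of the phagocytic and secretory machinery. *Cd68* (ENSMUSG00000018774, chr11:69664213-69666153, minus strand) encodes a lysosomal membrane glycoprotein. It was at 21.2, 25.1 and 25.3 CPM in wild type skin and at 30.8, 28.5 and 29.3 CPM in YAP2-5SA-∆C skin. The wild type libraries were spread more widely than the YAP2-5SA-∆C libraries, and wild type replicate 1 was the lowest. The means were 23.9 ± 2.29 and 29.5 ± 1.15 CPM, which is 0.31 on the log2 scale (SE 0.09, edgeR FDR 0.0908).

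*Lyz2* (ENSMUSG00000069516, chr10:117277331-117282321, minus strand) encodes lysozyme M, an enzyme that cleaves bacterial cell walls and is also made by neutrophils. Its levels were 116, 139 and 149 CPM in wild type skin and 185, 192 and 208 CPM in YAP2-5SA-∆C skin. The nearest libraries were 23.9% apart, a gap close to that of *Csf1r*. The means were 135 ± 16.8 and 195 ± 11.7 CPM, 0.53 apart on the log2 scale (SE 0.10), and the edgeR FDR of 0.0505 lay just outside the threshold. The transcripts compared for *Lyz2* (1316 bases) and its neighbour *Lyz1* (1263 bases) are identical at 96.0% of 1262 aligned bases. Since reads that map to more than 1 place were left out, the counts of this pair are uncertain. *Lyz1* had 127 to 222 counts in a library and a log2 fold change of 0.26 (edgeR FDR 0.539).

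*Mrc1* and *Cd163* encode scavenger receptors. *Mrc1* (ENSMUSG00000026712, chr2:14229392-14332057, plus strand) encodes CD206, the mannose receptor, which takes up glycoproteins and collagen fragments. It was at 152, 159 and 164 CPM in wild type skin and at 211, 238 and 241 CPM in YAP2-5SA-∆C skin. The wild type libraries were close together and the lowest YAP2-5SA-∆C library was 28.5% above them. *Mrc1* rose from 158 ± 6.37 to 230.2 ± 16.7 CPM, or by 0.54 on the log2 scale (SE 0.07), and its edgeR FDR of 0.0341 was the lowest of the 10 genes.

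*Cd163* (ENSMUSG00000008845, chr6:124304656-124330527, plus strand) encodes the receptor that clears haemoglobin bound to haptoglobin. It was at 46.2, 47.3 and 53.4 CPM in wild type skin and at 55.6, 80.7 and 75.5 CPM in YAP2-5SA-∆C skin. YAP2-5SA-∆C replicate 1 was only 4.10% above the highest wild type library, and the other two were far above it. The means of 49.0 ± 3.87 and 70.6 ± 13.3 CPM were 0.53 apart on the log2 scale (SE 0.14), a value close to that of *Mrc1*, but the spread was larger and *Cd163* did not pass (edgeR FDR 0.0789). Over the alternatives its FDR ran from 0.00796 (DESeq2) to 0.227 (edgeR without wild type replicate 2), and it was 0.0481 in edgeR without YAP2-5SA-∆C replicate 1.

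*C1qa*, *C1qb* and *C1qc* encode the chains of C1q, the recognition molecule of the classical complement pathway, which also coats dying cells for uptake and is made largely by tissue macrophages. The genes lie side by side on the minus strand of chromosome 4, at chr4:136895917-136898803 (*C1qa*, ENSMUSG00000036887), chr4:136889804-136893065 (*C1qc*, ENSMUSG00000036896) and chr4:136880129-136886187 (*C1qb*, ENSMUSG00000036905). *C1qa* was at 37.1, 50.7 and 51.9 CPM in wild type skin and at 52.3, 59.4 and 56.9 CPM in YAP2-5SA-∆C skin. Its groups nearly touched. *C1qb* was at 29.4, 36.7 and 41.3 CPM in wild type skin and at 45.7, 48.5 and 49.1 CPM in YAP2-5SA-∆C skin. *C1qc* was at 39.2, 49.7 and 51.8 CPM in wild type skin and at 53.4, 60.4 and 59.8 CPM in YAP2-5SA-∆C skin. In each chain, wild type replicate 1 stood below the other wild type libraries. The log2 fold changes in edgeR were 0.27 for *C1qa* (SE 0.13, FDR 0.242), 0.42 for *C1qb* (SE 0.12, FDR 0.0927) and 0.30 for *C1qc* (SE 0.11, FDR 0.150). Without wild type replicate 1, they were 0.14, 0.30 and 0.20 in the same order. None of the chains passed the quasi-likelihood test, and *C1qa* alone among the 10 genes had an unadjusted p-value above 0.05. In the same fit, 3968 of the 15102 tested genes had an unadjusted p-value under 0.05.

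*Cd14* (ENSMUSG00000051439, chr18:36725067-36726798, minus strand) encodes the co-receptor that hands lipopolysaccharide to TLR4. Its level was low, at 1.87, 1.78 and 2.19 CPM in wild type skin (34, 34 and 23 counts) and at 6.79, 3.41 and 6.43 CPM in YAP2-5SA-∆C skin (122, 58 and 103 counts). YAP2-5SA-∆C replicate 2 lay between the wild type libraries and the other YAP2-5SA-∆C libraries. The means of 1.95 ± 0.215 and 5.54 ± 1.85 CPM differed 2.87-fold, the largest ratio of the 10 genes. On the log2 scale the difference was 1.52 (SE 0.28), just outside the threshold (edgeR FDR 0.0504). Over the alternatives its FDR ran from 2.6e-06 (likelihood-ratio test of edgeR) to 0.190 (edgeR without wild type replicate 2), and it was 0.00824 in edgeR without YAP2-5SA-∆C replicate 2.

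**Figure D2:**
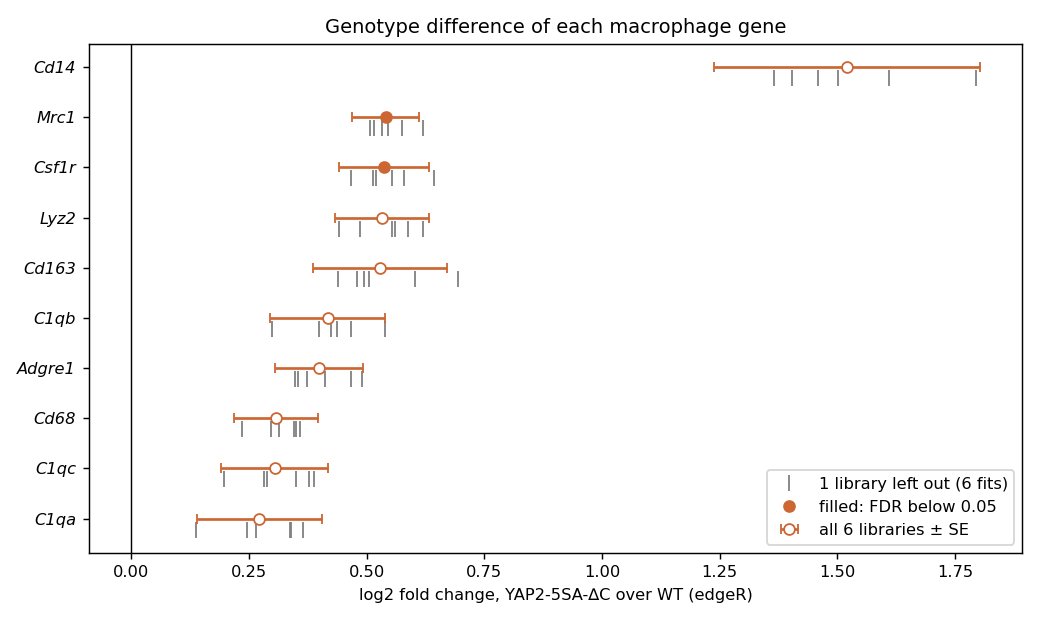
Log2 fold change of each macrophage gene, YAP2-5SA-∆C over wild type, with its standard error (edgeR, 6 libraries), and the 6 values obtained when each library was left out (grey ticks). All values are above 0, from 0.14 (*C1qa* without wild type replicate 1) to 1.80 (*Cd14* without YAP2-5SA-∆C replicate 2), and the filled points mark *Csf1r* and *Mrc1*, the genes with an FDR below 0.05.

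The number of calls moved with the libraries, among the 10 genes and over all genes alike. When replicate 3 of either genotype or replicate 2 of the wild type was left out, 0 of the 10 genes passed edgeR's quasi-likelihood test, and 0% of all tested genes were called higher, so these fits say nothing about the macrophage genes in particular. The unadjusted p-value in these fits was under 0.05 for 9 of the 10 genes without either wild type library and for 8 of the 10 without the YAP2-5SA-∆C library. Over all tested genes, 2726 of 14981 had such a p-value with wild type replicate 2 left out. The counts were 2844 of 14999 with wild type replicate 3 left out and 3691 of 14925 with YAP2-5SA-∆C replicate 3 left out. Without wild type replicate 1, 0 of the 10 passed (8 at an unadjusted p under 0.05), beside 0.822% of all tested genes called higher. In that fit, 3841 of the 14958 tested genes had an unadjusted p under 0.05. *Mrc1* and *Cd163* passed without YAP2-5SA-∆C replicate 1 (background 0.489%), and *Csf1r*, *Mrc1*, *Lyz2* and *Cd14* passed without YAP2-5SA-∆C replicate 2 (background 2.73%). With all libraries, those same 4 genes also passed under other scalings and filters. The backgrounds were 1.83% with RLE scaling, 2.24% with upper-quartile scaling, 1.4% with no count filter and 1.56% with at least 10 counts in every library. Without the mitochondrial genes, 3 of the 10 passed (background 1.89%). With 1 library left out, the edgeR FDR ranged from 0.0383 to 0.186 for *Csf1r* and from 0.0182 to 0.178 for *Mrc1*. The median log2 fold change of the 10 genes stayed between 0.40 and 0.56 when each library was left out.

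Some libraries held the same rank within their genotype for most genes. Summed over the 10 genes, the level was 537, 611 and 658 CPM in wild type replicates 1, 2 and 3 and 782, 865 and 875 CPM in the YAP2-5SA-∆C replicates. Wild type replicate 1 was the lowest of its group for 9 genes, all but *Cd14*, and wild type replicate 3 the highest for all 10. YAP2-5SA-∆C replicate 1 was the lowest of its group for 8 genes. The exceptions were *Cd68* and *Cd14*, which were highest in that library and lowest in YAP2-5SA-∆C replicate 2. The highest YAP2-5SA-∆C library was replicate 2 for 4 genes (*Csf1r*, *Cd163*, *C1qa* and *C1qc*) and replicate 3 for 4 others (*Adgre1*, *Mrc1*, *C1qb* and *Lyz2*).

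To compare levels between genes, the scaled counts were divided by the exon length of each gene (RPKM). *Lyz2* had the highest level, with 88.3 to 113 RPKM in wild type and 140 to 158 RPKM in YAP2-5SA-∆C skin. It was followed by the complement chains and the mannose receptor. *C1qa* had 35.6 to 49.9 RPKM in wild type and 50.3 to 57.1 RPKM in YAP2-5SA-∆C skin, *C1qb* 27.0 to 38.0 and 42.0 to 45.1 RPKM, and *Mrc1* 23.8 to 25.8 and 33.1 to 37.9 RPKM. *C1qc* and *Cd68* came next. *C1qc* had 20.3 to 26.8 RPKM in wild type and 27.7 to 31.3 RPKM in YAP2-5SA-∆C skin, and *Cd68* 16.9 to 20.1 and 22.7 to 24.5 RPKM. The surface receptors of the lineage were lower. *Csf1r* had 11.4 to 14.5 and 17.9 to 19.6 RPKM, *Adgre1* 8.86 to 10.7 and 11.8 to 13.5 RPKM, and *Cd163* 8.46 to 9.77 and 10.2 to 14.8 RPKM. *Cd14* was far below the rest, with 1.03 to 1.26 RPKM in wild type and 1.97 to 3.92 RPKM in YAP2-5SA-∆C skin. In wild type skin the ranges of 3 pairs of neighbours overlapped, namely *C1qa* with *C1qb*, *Mrc1* with *C1qc*, and *Adgre1* with *Cd163*. In YAP2-5SA-∆C skin only *Adgre1* and *Cd163* overlapped.

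**Figure D3:**
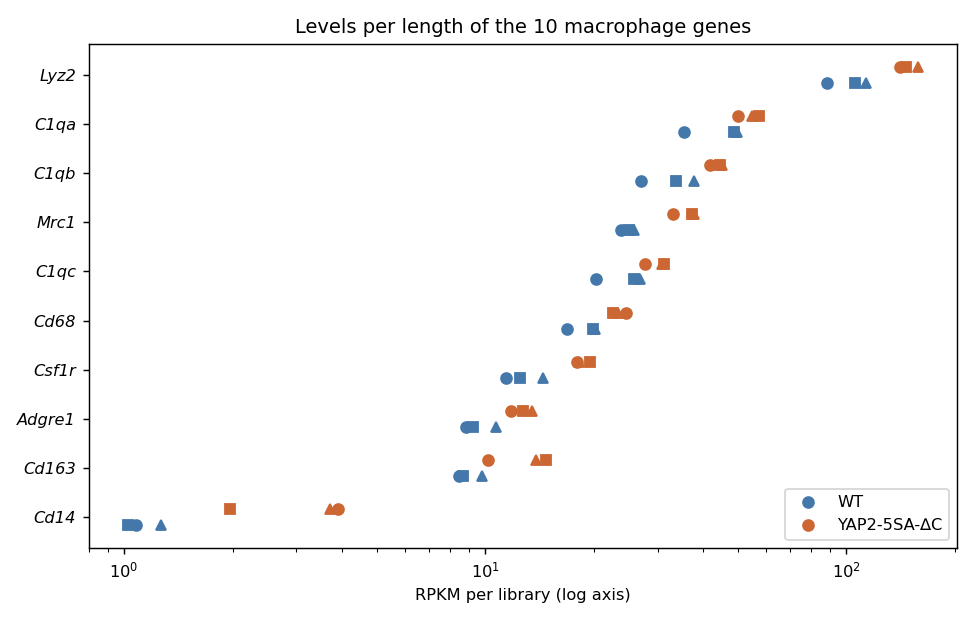
Level per length of each macrophage gene (RPKM, log axis) in each library, with wild type in blue and YAP2-5SA-∆C in orange (circle, square and triangle for replicates 1, 2 and 3). *Lyz2* lies highest, at 88.3 to 158 RPKM over both genotypes, and *Cd14* lowest, at 1.03 to 3.92 RPKM.

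Ratios of counts within a library were then used to ask whether the genes differed by unequal amounts, since such ratios do not depend on scaling. With 3 mice against 3, the exact permutation test cannot go below 0.1, so no ratio could pass a threshold of 0.05, and the 21 ratios are given as values. Relative to *Cd68*, the log2 ratio was higher in every YAP2-5SA-∆C library for *Csf1r* (by 0.23), *Lyz2* (by 0.23) and *Cd14* (by 1.14), each with two-sided exact permutation p = 0.1 and adjusted p = 0.3. The groups overlapped for the other 6 genes, with differences of 0.23 for *Mrc1*, 0.20 for *Cd163*, 0.12 for *C1qb*, 0.09 for *Adgre1*, 0.0015 for *C1qc* and -0.03 for *C1qa*. These 6 differences moved with the library left out, to between 0.18 and 0.32 for *Mrc1*, 0.07 (TG replicate 2 left out) and 0.39 (TG replicate 1 left out) for *Cd163*, and 0.07 (WT replicate 1 left out) and 0.18 (WT replicate 3 left out) for *C1qb*. That of *Adgre1* ran from 0.03 (WT replicate 2 left out) to 0.17 (TG replicate 1 left out), and the signs of *C1qc* (-0.06 to 0.09) and *C1qa* (-0.10 to 0.06) changed. Of all 21 ratios, 7 had groups without overlap, and 13 did so with WT replicate 1 or TG replicate 2 left out, where fewer libraries make overlap less likely. Among the C1q chains, the log2 ratio of *C1qa* to *C1qb* was 0.34, 0.46 and 0.33 in wild type and 0.19, 0.29 and 0.21 in YAP2-5SA-∆C skin. The groups did not overlap (difference -0.14, two-sided exact permutation p = 0.1). The log2 ratio of *C1qa* to *C1qc* overlapped between the groups, with a difference of -0.03 (two-sided exact permutation p = 0.5). With 1 library left out, this difference ran from -0.059 (WT replicate 1 left out) to -0.0049 (WT replicate 2 left out).

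The genes were then set against *Ptprc*, which encodes CD45, the phosphatase carried by all leukocytes. *Ptprc* was among the upregulated genes that the study picked from these same libraries for quantitative RT-PCR. It was at 38.3, 36.5 and 42.8 CPM in wild type and 60.8, 57.7 and 66.5 CPM in YAP2-5SA-∆C skin. The log2 fold change of *Ptprc* in edgeR, 0.65 (FDR 0.0340), was above that of every macrophage gene but *Cd14*. A lower ratio to *Ptprc* therefore says only that a gene rose by less than this denominator. The log2 ratio to *Ptprc* was lower in every YAP2-5SA-∆C library for *Cd68* (difference -0.34) and *Adgre1* (difference -0.26) and higher in every one for *Cd14* (difference 0.80). For the other 7 genes the groups overlapped, with differences of -0.37 for *C1qa*, -0.34 for *C1qc*, -0.22 for *C1qb*, -0.14 for *Cd163*, -0.12 for *Lyz2*, -0.12 for *Mrc1* and -0.11 for *Csf1r*. With 1 library left out, that of *Cd163* ran from -0.29 (TG replicate 2 left out) to 0.012 (TG replicate 1 left out), and that of *Csf1r* from -0.20 (TG replicate 2 left out) to -0.04 (TG replicate 3 left out). The difference of *Lyz2* ran from -0.20 (WT replicate 1 left out) to -0.04 (WT replicate 2 left out), and that of *Mrc1* from -0.19 (TG replicate 2 left out) to -0.06 (WT replicate 2 left out). The difference of *C1qb* ran from -0.35 (WT replicate 1 left out) to -0.15 (WT replicate 2 left out). The C1q chains and the 3 genes that separated kept their sign in each of these fits. Each of these 3 separations had a two-sided exact permutation p of 0.1 and an adjusted p of 0.3.

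**Figure D4:**
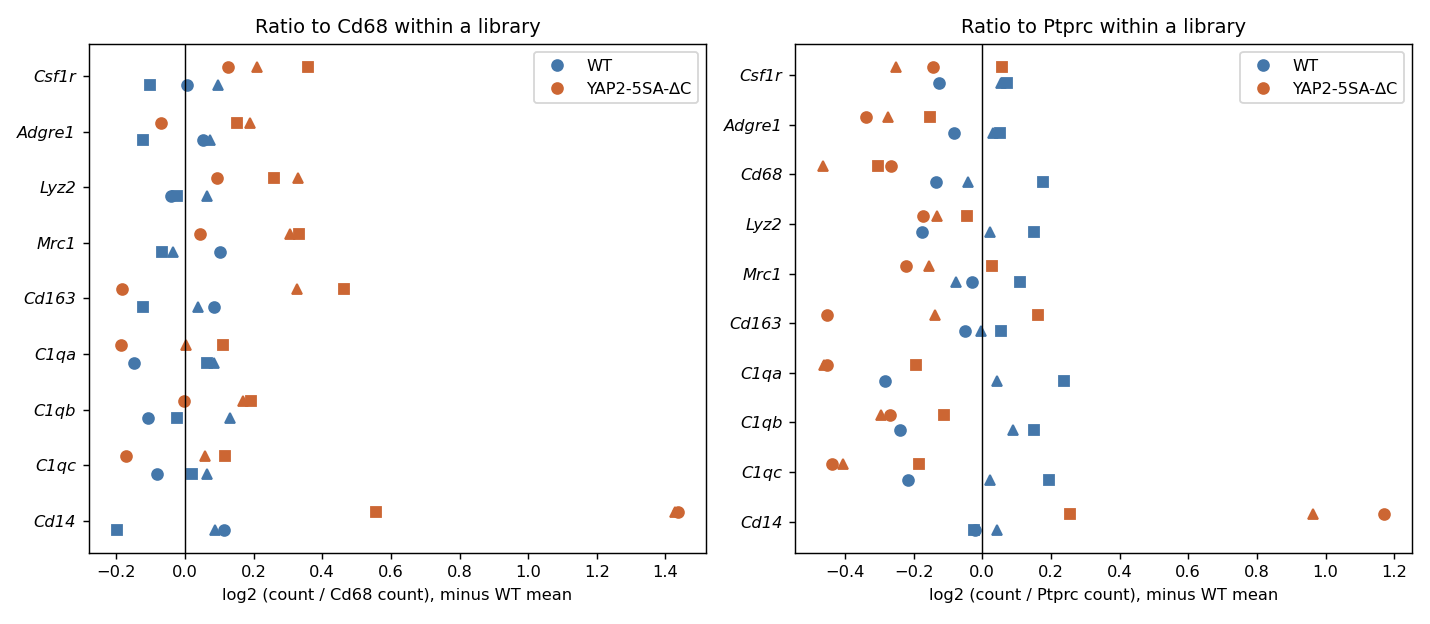
Log2 ratio of each macrophage gene's count to that of *Cd68* (left) and *Ptprc* (right) in each library, with the wild type mean set to 0 (blue wild type, orange YAP2-5SA-∆C, circle, square and triangle for replicates 1, 2 and 3). *Cd14* stands apart to the right in both panels (mean differences 1.14 and 0.80), and the mean of every other gene lies left of 0 in the right panel.

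The genes whose pattern over the 6 libraries was most like that of the macrophage genes were found by the Pearson correlation of log2 CPM with the mean standardized level of the 10 genes, outside the list itself. They were *F10* (r = 0.997), which encodes coagulation factor X, *Pltp* (r = 0.996), which encodes the phospholipid transfer protein, *Scgb1b27* (r = 0.994), *Kif1a* (r = 0.991) and *Sh2d5* (r = 0.988). These values are a description over 6 libraries that also share the genotype difference. *F10*, *Scgb1b27* and *Sh2d5* were low, with wild type means of 0.627, 0.622 and 0.892 CPM. *Pltp* was at 28.5, 31.1 and 33.9 CPM in wild type and 37.5, 40.7 and 40.9 CPM in YAP2-5SA-∆C skin. By the same measure, *Lyz2* (r = 0.996) was the most typical of the 10 genes and *Cd14* (r = 0.830) the least, although each of the 10 is part of the mean it is compared with.

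To see what the genes share upstream, the 250 bases before each gene's RefSeq start were searched on both strands, in the promoter windows of RefSeq (GRCm38.p6). Windows were at hand for 6 of the 10 genes, *Mrc1*, *C1qb*, *C1qc*, *Cd163*, *Lyz2* and *Cd68*, and not for *Csf1r*, *Adgre1*, *C1qa* or *Cd14*. The letters GAGGAA, the core of the sites bound by the lineage factor PU.1, were in 4 of the 6 windows, against 23.3% of 32851 windows of all genes. The letters GGAATG, the core bound by the TEAD partners of YAP, were in 0 of the 6, against 12.6% of all windows. The AP-1 letters TGANTCA were in 1 of the 6, that of *Cd68* (at positions -149 and -24 from its RefSeq start), against 6.7%, and the C/EBP letters TTGCGCAA in 0 of the 6, against 0.2%. The RefSeq starts are not the GENCODE starts printed above. They lie 22 bases inside the GENCODE gene for *Mrc1*, 151 for *C1qc* and 49 for *Lyz2*, and a few bases before it for *C1qb*, *Cd68* and *Cd163*, so 22, 151 and 49 bases of the windows of *Mrc1*, *C1qc* and *Lyz2* are exon in GENCODE. In the window of *Cd163*, 28 bases are exon of another annotated gene. A match of so few letters is a description and not a binding site, and a window without a match says only that the letters are not in that stretch. The *Mrc1* window held 3 matches to the PU.1 letters, at positions -180, -167 and -35, the last of them just before the GENCODE start, and the other 3 genes held 1 each. The 4 stretches below, 1 per gene and none reaching into an annotated exon, show the PU.1 letters in capitals (GAGGAA, or TTCCTC where the match is on the opposite strand), written 5′ to 3′ in the direction of the gene, with the position of the first capital counted from the RefSeq start, which is base 14229414 for *Mrc1*, 136886200 for *C1qb*, 136892914 for *C1qc* and 69666170 for *Cd68*.
*Mrc1*, position -180, chr2:14229222-14229251, plus strand: ctcctacacatgTTCCTCtctccccttcct
*C1qb*, position -30, chr4:136886213-136886242, minus strand: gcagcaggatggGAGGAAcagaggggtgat
*C1qc*, position -193, chr4:136893090-136893119, minus strand: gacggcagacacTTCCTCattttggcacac
*Cd68*, position -225, chr11:69666378-69666407, minus strand: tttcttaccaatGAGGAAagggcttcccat
The genes with these letters include *Mrc1*, which rose, and *C1qb*, *C1qc* and *Cd68*, which did not pass the test. Neither *Cd163* nor *Lyz2*, with log2 fold changes of 0.53 each, held any of the letters searched.

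The genes that act with the members were taken from lists of the pathways around them. Of the 12 genes of the CSF1R axis and its transcription factors, 2 rose, 0 fell and 10 did not pass the quasi-likelihood test (median log2 fold change 0.46). These were *Spi1*, which encodes PU.1, with 5.44, 5.60 and 7.42 CPM in wild type and 10.8, 10.4 and 11.9 CPM in YAP2-5SA-∆C skin (log2 fold change 0.85, edgeR FDR 0.0436), and *Csf2rb*, the shared chain of the GM-CSF receptor (0.79, edgeR FDR 0.0375). The CSF1R ligands were named after their values were seen. *Csf1* had 26.4 to 33.1 CPM in wild type and 38.1 to 47.7 CPM in YAP2-5SA-∆C skin (log2 fold change 0.50, edgeR FDR 0.0661), and *Il34* had 6.28 to 9.51 and 11.6 to 16.2 CPM (0.72, edgeR FDR 0.0805). For both ligands, as for their receptor, the groups did not overlap. Also named after its values were seen, *Maf*, which encodes a transcription factor of macrophages, was lower in every YAP2-5SA-∆C library, at 146 to 158 CPM against 170.0 to 199 CPM in wild type skin (log2 fold change -0.25, edgeR FDR 0.0971).

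Of the 20 other genes of mononuclear phagocytes, 8 rose, 0 fell and 12 did not pass the quasi-likelihood test (median log2 fold change 0.69). Of the 8, *Ptprc*, *Itgb2*, *Laptm5* and *Cd53* (named after its values were seen) are carried by leukocytes in general. The log2 fold change was positive for 19 of the 20, and negative for *Mertk*, a receptor for dying cells that was lower in every YAP2-5SA-∆C library (-0.16, edgeR FDR 0.291) and was named after its values were seen. The lowest FDR was that of *Ctss*, which encodes the lysosomal protease cathepsin S, at 41.2, 40.6 and 40.0 CPM in wild type and 75.8, 68.2 and 74.5 CPM in YAP2-5SA-∆C skin (log2 fold change 0.84, edgeR FDR 0.0101). It was followed by *Itgb2*, the integrin chain CD18 (0.64), *Tyrobp*, the signalling adaptor DAP12 (0.81), and *Laptm5*, a lysosomal membrane protein of leukocytes (0.61), each with an edgeR FDR of 0.0300. The list median lay above that of the 10 identity genes, and the difference between the lists was not tested.

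Of the 12 tested genes tied to dermal macrophages of the resident type, 1 rose, 0 fell and 11 did not pass (median log2 fold change 0.14, not tested against the other lists). The log2 fold change was positive for 9 and negative for 3, and the YAP2-5SA-∆C libraries lay above the wild type libraries without overlap for 2 of the 12, beside 15.5% of all tested genes. The gene that rose was *Pf4*, a chemokine of platelets and macrophages, from 9.89, 11.4 and 10.4 CPM to 16.1, 16.1 and 14.8 CPM (log2 fold change 0.57, edgeR FDR 0.0429). The other gene without overlap was *Stab1*, a scavenger receptor, at 59.1 to 72.8 CPM in wild type and 76.5 to 83.4 CPM in YAP2-5SA-∆C skin (0.31, edgeR FDR 0.0854). Among the rest, log2 fold changes ran from -0.62 for *Timd4* (edgeR FDR 0.187) to 0.30 for *Clec10a* (edgeR FDR 0.191). *Stab1*, *Timd4* and *Clec10a* were named after their values were seen.

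Of the 14 tested genes of monocytes and activated macrophages, 1 rose, 0 fell and 13 did not pass (median log2 fold change 0.61). It was *Thbs1*, which encodes the matrix glycoprotein thrombospondin-1 and is also made by other skin cells, from 111, 109 and 110.1 CPM to 148, 171 and 152 CPM (log2 fold change 0.51, edgeR FDR 0.0346). Chosen after their values were seen, *Ccr2*, the receptor that brings monocytes into tissue, had 30.5 to 35.9 CPM in wild type and 43.2 to 60.9 CPM in YAP2-5SA-∆C skin (0.64, edgeR FDR 0.0576), and *Il1b* had 0.942 to 2.47 and 3.29 to 19.7 CPM (2.87, edgeR FDR 0.0634). For *Il1b*, as for *Cd14*, YAP2-5SA-∆C replicate 2 was the lowest of its group. Of the 14, 12 had a positive log2 fold change and 2 a negative one, *Gpnmb* and *Arg1* (named after their values were seen). Both were lower in every YAP2-5SA-∆C library, whereas 6 genes were higher in every one. *Gpnmb* had 155 to 191 CPM in wild type and 41.4 to 108 CPM in YAP2-5SA-∆C skin (-1.08). *Arg1* had 20.2 to 23.8 and 9.94 to 18.6 CPM (-0.58). The summed levels of the list overlapped, at 344 to 394 and 305 to 397 CPM.

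None of the partners of C1q, CD14 and CD163 passed the quasi-likelihood test. This was 0 of 11 complement genes (median log2 fold change 0.31), 0 of 9 genes of lipopolysaccharide recognition (0.31) and 0 of 8 genes of haem and iron handling (0.13). *Serping1*, the inhibitor of the C1 complex, had 130 to 136 CPM in wild type and 149.5 to 173 CPM in YAP2-5SA-∆C skin (log2 fold change 0.26, edgeR FDR 0.0769), and *C3*, the central complement protein, had a log2 fold change of 0.32 (edgeR FDR 0.304). *Tlr4*, the signalling receptor to which CD14 passes its ligand, had 15.3 to 19.8 CPM and 20.5 to 23.0 CPM (0.25, edgeR FDR 0.225), against the log2 fold change of 1.52 of *Cd14*, and the adaptor gene *Myd88* had 0.33 (edgeR FDR 0.0657). *Hp*, which encodes the haptoglobin bound by CD163, had 230 to 241 CPM and 262 to 288 CPM (0.25, edgeR FDR 0.0670), and the ferritin gene *Fth1* had 0.60 (edgeR FDR 0.0746). The widest difference in the haem and iron list went the other way and was named after it was seen. *Slc40a1*, which encodes the iron exporter ferroportin, was at 156, 181 and 174 CPM in wild type and 106, 48.8 and 104 CPM in YAP2-5SA-∆C skin, lower in every YAP2-5SA-∆C library (log2 fold change -0.98, edgeR FDR 0.0849). It was the 1 gene of that list called lower by the likelihood-ratio test, which called 1 other gene of the list higher. That test also called 2 complement genes and 1 gene of lipopolysaccharide recognition higher, and 0 of either list lower.

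**Figure D5:**
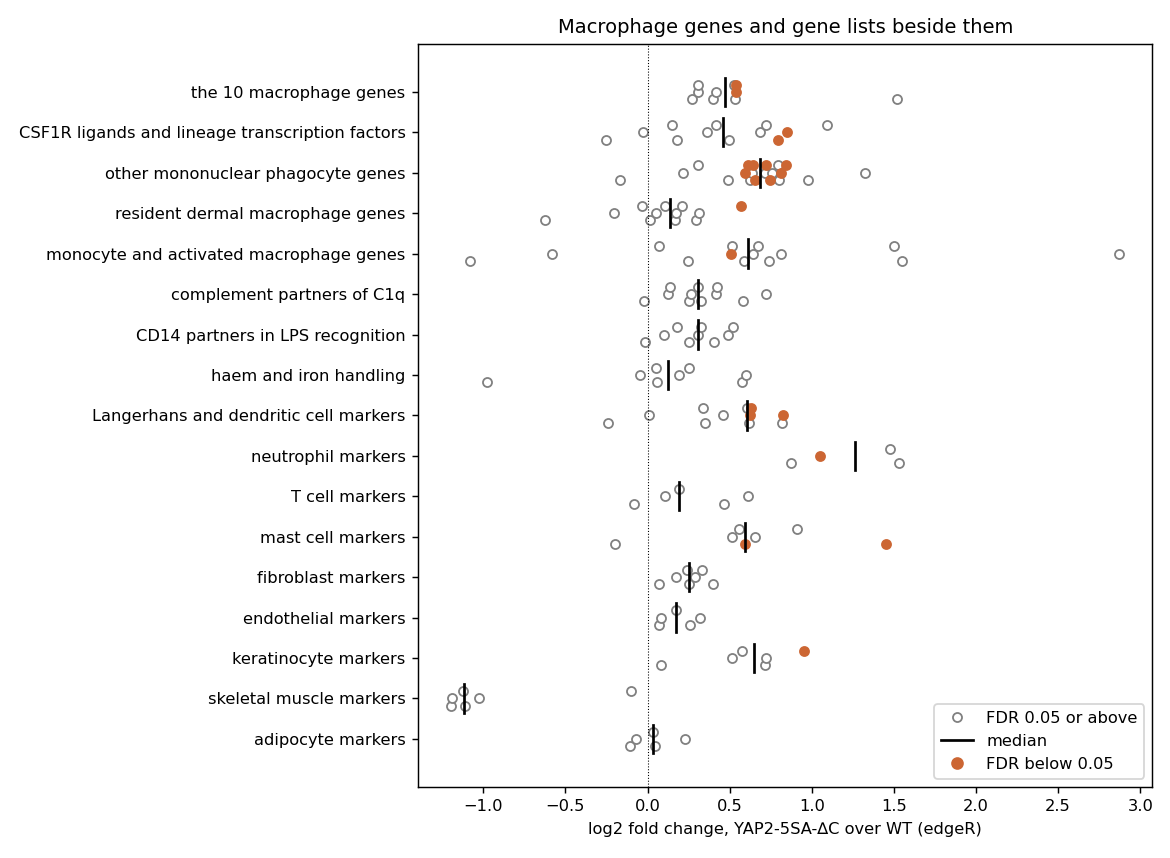
Log2 fold change, YAP2-5SA-∆C over wild type (edgeR), of each tested gene of the macrophage list and of the lists beside it, with the median of each list as a bar and genes with an FDR below 0.05 filled. The macrophage genes all lie above 0 with a median of 0.47, and the medians of the other lists run from -1.12 (skeletal muscle) to 1.26 (neutrophil).

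Several of the 10 genes are shared with other cells of the skin, and the markers of those cells are given here as values. Over Langerhans and dendritic cell markers, 3 of 11 tested genes rose, 0 fell and 8 did not pass (median log2 fold change 0.60), with summed levels of 429 to 507 CPM in wild type and 596 to 699 CPM in YAP2-5SA-∆C skin. These were *Itgax*, the integrin CD11c (0.82, edgeR FDR 0.0401), *H2-Aa* (0.63, edgeR FDR 0.0419) and *Cd74* (0.62, edgeR FDR 0.0436), which serve antigen presentation and are also expressed by macrophages. Over neutrophil markers, 1 of 4 tested genes rose (*Cxcr2*, a chemokine receptor, 1.05, edgeR FDR 0.0401), with summed levels of 16.5 to 52.3 CPM in wild type and 37.1 to 85.3 CPM in YAP2-5SA-∆C skin. The granule genes *Elane*, *Ltf* and *Ngp*, named after their counts were seen, had at most 3 counts in every library. Over mast cell markers, 2 of 7 rose, namely *Hdc*, the enzyme that makes histamine (1.45, edgeR FDR 0.0300), and the chymase gene *Cma1* (0.59, edgeR FDR 0.0467), with summed levels of 160 to 179 and 211 to 260.3 CPM. The part of these cells in the levels of the 10 macrophage genes was not tested.

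No T cell marker passed (0 of 5, median log2 fold change 0.19), and the 5 B cell markers together had at most 1.75 CPM in any library. Among the structural cells, 1 of 6 keratinocyte markers rose, the basal keratin gene *Krt14* (0.95, edgeR FDR 0.0300), and 5 did not pass. All 6 log2 fold changes were positive (median 0.65), with summed levels of 5975 to 7198 CPM in wild type and 9364 to 13710 CPM in YAP2-5SA-∆C skin, and the part of these cells in the macrophage values was not tested. No fibroblast (0 of 7, median 0.25), endothelial (0 of 5, median 0.17), adipocyte (0 of 5, median 0.04) or skeletal muscle marker (0 of 6, median -1.12) passed. Skeletal muscle RNA differed most between libraries of one genotype, with summed levels of 1330, 6486 and 5308 CPM in wild type replicates 1, 2 and 3 and 3293, 2107 and 1275 CPM in the YAP2-5SA-∆C replicates. Wild type replicate 1, the lowest in the summed macrophage genes, was also the lowest wild type library in muscle RNA, whereas YAP2-5SA-∆C replicate 3, the highest in the summed macrophage genes, was the lowest YAP2-5SA-∆C library in muscle RNA. Its part in the macrophage values was not tested.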

How the data were processed

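Raw counts per Ensembl gene, deposited by the authors for 6 libraries of mouse dorsal neck skin (3 WT, 3 TG), were used. Reads were mapped by the authors to GRCm38 (TopHat2 2.0.12 and Bowtie2 2.1.0 in the submitters' processing notes) and uniquely mapped reads were counted with HTSeq, so reads that fit near-identical genes are missing. The annotation release and strand setting are not given in the sources used here. The text of the study describes mRNA libraries, and the labels name a total RNA kit. Names and exon lengths came from GENCODE M21 (GRCm38), in which 558 identifiers of the table are absent.

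Genes reaching 1 CPM in 3 or more libraries were scaled with TMM and tested with edgeR 4.0.16 (glmQLFit, glmQLFTest, genotype as the only term) in R 4.3.3. The likelihood-ratio test, voom (limma 3.58.1) and DESeq2 1.42.0 were alternatives, as were other scalings and filters, a replicate block, removal of mitochondrial genes and leaving out each library. P-values were adjusted by Benjamini-Hochberg over all tested genes, and a standard error is the log2 fold change divided by the square root of F. Correlations used log2 CPM with a prior count of 2. Code was tested on simulated data. Exact permutation tests used scipy 1.17.1, and the Lyz1 and Lyz2 transcripts were aligned with Biopython 1.88.

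The members and lists were chosen with earlier results of these data known. Named genes were the 10 members, from each list the genes past the threshold (at most 4 in each direction, by p) or, where none passed, the 2 with the highest mean CPM, and the 5 genes most like the members. *Ptprc* was the denominator of the ratios, and *Hmgxb3* and *Lyz1* were named for sequence shared with a member. Other names are marked as chosen after their values or counts were seen. The labels name no pairs, and the replicate numbers were not taken as pairs. Deviations from the group mean had correlations of -0.332, -0.228 and -0.0501 between same-numbered libraries. Between differently numbered libraries they ran from -0.065 to 0.269. With 3 libraries per group, this check cannot exclude pairs by litter.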

Additional observations from a re-analysis of the deposited data

How the results depend on the processing

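All log2 fold changes of the 10 macrophage genes were positive in each of the 15 alternatives (150 values), of which 119 kept their side of the threshold, 11 lost it, 20 gained it and 0 reversed. With RLE scaling, upper-quartile scaling, no count filter, or a filter of at least 10 counts in every library, 4 of the 10 genes passed in place of 2 (in each case *Csf1r*, *Mrc1*, *Lyz2* and *Cd14*). The likelihood-ratio test gave 5, DESeq2 gave 7 and removal of the mitochondrial genes gave 3. Leaving out each library gave 0 to 4. Over all tested genes, 288 calls in either direction became 357 with RLE scaling, 416 with upper-quartile scaling, 306 with at least 10 counts in every library, 373 without the mitochondrial genes, 497 without a count filter, 1568 with the likelihood-ratio test, 1583 with DESeq2 (2 genes had no adjusted p) and 0 to 817 when each library was left out. The calls among the 142 tested genes of the other lists went from 19 to 51 with the likelihood-ratio test, 53 with DESeq2 and 0 to 37 with each library left out. The ratios whose groups did not overlap went from 7 of 21 to between 7 and 13 with fewer libraries. A replicate block, in which the shared numbers are not known to mark pairs, left 0 calls over all genes (2949 at an unadjusted p under 0.05), 0 of the 10 macrophage genes (all 10 at an unadjusted p under 0.05) and 0 of the other lists. The cause of these differences was not tested. Depth limits *Cd14* most, with 23 to 122 counts in a library.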
